A study of Mus musculus with 10 samples.

Results

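The EGFR family was described across glioma progression in mouse cells through 10 genes, 4 receptors (Egfr, Erbb2, Erbb3 and Erbb4) and 6 ligands (Egf, Tgfa, Hbegf, Areg, Ereg and Btc), chosen by symbol from a matrix of 23230 features, and all 10 were found. In the model, cortical astrocytes of C57BL/6 mice at postnatal day 5 that lacked p16 and p19 (the products of Ink4a/Arf) carried a retroviral vector for human EGFRvIII, a constitutively active EGFR mutant, and were kept below passage 10 (AstroEGFR*, n = 3 cultures). PT, the glioma propagating cells, were derived from tumours that such cells formed in CD1 Nude hosts (n = 4), and AstroEGFR* Zfp423 were the 3 astrocyte cultures after infection with a further vector for the transcription factor Zfp423 (n = 3). By their labels all 10 libraries shared the Ink4a/Arf loss and the EGFR mutant, and no culture without the mutant was compared here. The 3 AstroEGFR* cultures are numbered by astrocyte batch. Batch 1 gave PT1 and PT4, which therefore share their source, while PT2 derived from batch 2 and PT3 from batch 3. Astrocytes were grown with serum, whereas PT were grown without serum on laminin with EGF and FGF2 added, so that the medium and the passage through a tumour cannot be told apart in any PT comparison.

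The receptors of the family are tyrosine kinases that pair with each other when a ligand binds, and ERBB2, for which no ligand is known, acts as a shared partner. The ligands are made as membrane proteins and are released by ADAM proteases. Activated receptors recruit adaptors that switch on the RAS-ERK and PI3K pathways, and ERK output genes such as the Sprouty and DUSP families feed back on the signal. EGFR is among the genes most often altered in human high-grade glioma, and the ligand-independent EGFRvIII is one form of that change.

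The values are FPKM, fragments scaled to transcript length and library size, so levels can be set side by side between genes of different length. Values of a group are given in the order of its culture numbers, PT1 first and PT4 last. Tests were made with limma on log2(FPKM + 1), with adjusted p-values over all features that had a mean of at least 1 FPKM. For genes with low values, a difference on this scale is smaller than the true log2 ratio. Depth is unknown for lack of fragment counts, and 6200 to 9155 features were listed at 0 in a library. Small non-coding RNA and histone features (801 in all) took 0.315% to 0.683% of the FPKM in AstroEGFR*1, PT1 and PT4 and 4.84% to 54.8% in the other 7 libraries. Of 8 astrocyte markers, Gjb6 was listed at 0 in all libraries and 7 were at 1 FPKM or more in each AstroEGFR* library, whereas 4 were in AstroEGFR*2 Zfp423, where their sum was 7.22 FPKM against 356 to 963 FPKM in AstroEGFR*. Zfp423 itself was at 3.25 to 4.30 FPKM in AstroEGFR*, at 0.641 to 2.78 FPKM in PT and at 15.7, 9.73 and 105 FPKM in the 3 libraries with the vector. Cdkn2a, the Ink4a/Arf gene that is labelled as knocked out, was listed at 3.96 to 9.01 FPKM in 8 libraries, at 29.1 FPKM in AstroEGFR*3 and at 130 FPKM in PT3. The values are given per gene and not per exon, so they do not show whether the deleted part was transcribed, and the loss was not checked in any library. The female transcript Xist was at 20.4 to 34.9 FPKM in the 3 libraries of batch 2 and at most at 0.0403 FPKM in the other 7, which is the split that the batch numbers give.

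Egfr was the most abundant receptor transcript in 9 of 10 libraries and Hbegf, which encodes heparin-binding EGF-like growth factor, the most abundant ligand transcript in all 10. The clearest difference between groups was in the ligands. Hbegf was lower in all 4 PT than in all 3 AstroEGFR*, at 0.257 of their mean FPKM, and Nrg1, a ligand of ERBB3 and ERBB4 that is not among the 10 genes, was lower still, at 0.0853 of the AstroEGFR* mean. Egfr differed more between the 3 AstroEGFR* cultures, by 46.4-fold, than between the groups. None of the 7 members that could be tested in each comparison passed the adjusted threshold.

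Egfr, the receptor that gives the family its name, was listed at 7.81, 362 and 63.0 FPKM in the AstroEGFR* cultures of batches 1, 2 and 3. In PT1, PT2, PT3 and PT4 it was at 23.7, 134, 128 and 18.9 FPKM. With the Zfp423 vector it was at 116, 82.2 and 343 FPKM in batches 1, 2 and 3. The 3 groups overlapped, with the highest and the lowest value both in AstroEGFR*. The human EGFRvIII transcript resembles mouse Egfr and the deposited values are not split by species, so the share of these fragments that came from the vector was not tested.

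The log2 difference of Egfr in PT from AstroEGFR* was -0.12 (SE 1.28, n = 3 and 4, limma adjusted p = 0.98; exact permutation p = 0.857). Against the AstroEGFR* of its own batch, Egfr was higher in PT1 (by 1.49 on the log2 scale), PT4 (1.18) and PT3 (1.01) and lower in PT2 (-1.43). The direction of the group difference therefore depended on the libraries included, and it was 0.41 with the astrocyte batch as a block (adjusted p = 0.663). With the Zfp423 vector, Egfr was higher in batch 1 (3.73) and batch 3 (2.43) and lower in batch 2 (-2.13), and the mean log2 difference over the 3 pairs was 1.34 (SE 1.24, limma adjusted p = 0.774).

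**Figure D1:**
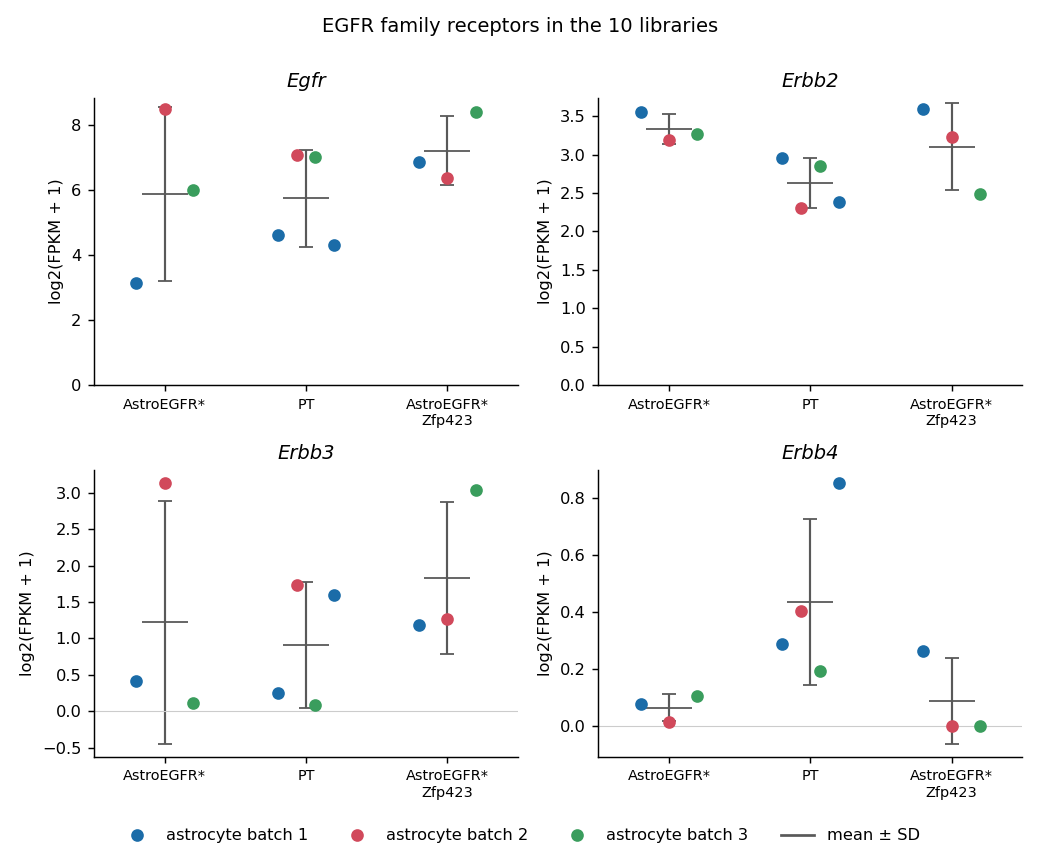
Each panel gives log2(FPKM + 1) of 1 receptor gene in the 3 AstroEGFR*, 4 PT and 3 AstroEGFR* Zfp423 libraries, coloured by astrocyte batch, with bars for the group mean and SD and a scale of its own. Egfr spans 7.81 to 362 FPKM within AstroEGFR*, all PT values of Erbb2 lie below all AstroEGFR* values, and Erbb4 stays under 1 FPKM.

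Egfr was lowest in the libraries with the smallest small RNA shares. The 3 libraries with under 2% of FPKM in small RNA and histone features had the 3 lowest values of Egfr, 7.81 to 23.7 FPKM. The other 7 had 63.0 to 362 FPKM. Among these 7, Egfr did not rise steadily with the share, at 128 FPKM for 6.08%, 362 FPKM for 29.6% and 82.2 FPKM for 35.9%. The 3 low libraries were all of batch 1. The other library of that batch, AstroEGFR*1 Zfp423, had 35.4% of such features and 116 FPKM of Egfr. Gapdh, a glycolytic gene often used as a reference, also split in this way, at 0.0106 to 0.0206 FPKM in the 3 libraries and 1.16 to 50.1 FPKM in the other 7. Outside PT3 it did not exceed 2.52 FPKM. Such values are low for a reference gene, and whether they reflect its transcript level was not tested. Hbegf did not split in this way, with 27.0 to 129 FPKM against 16.1 to 331 FPKM. From AstroEGFR* to AstroEGFR* Zfp423 the share went from 0.315% to 35.4% in batch 1 and from 4.84% to 54.8% in batch 3, where Egfr was higher with the vector. In batch 2 it went from 29.6% to 35.9%, and Egfr was lower. The astrocyte marker sum of that batch was 392 FPKM in AstroEGFR*2 and 7.22 FPKM with the vector. The microglia and fibroblast or meninges sums with the vector were 842 and 6923 FPKM there. In batch 1, where Egfr was higher, they were 1473 and 4738 FPKM. The parts of the small RNA share and of these cells in the Egfr values were not tested. In batches 1 and 3 the share cannot be told apart from the change with the Zfp423 vector.

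**Figure D2:**
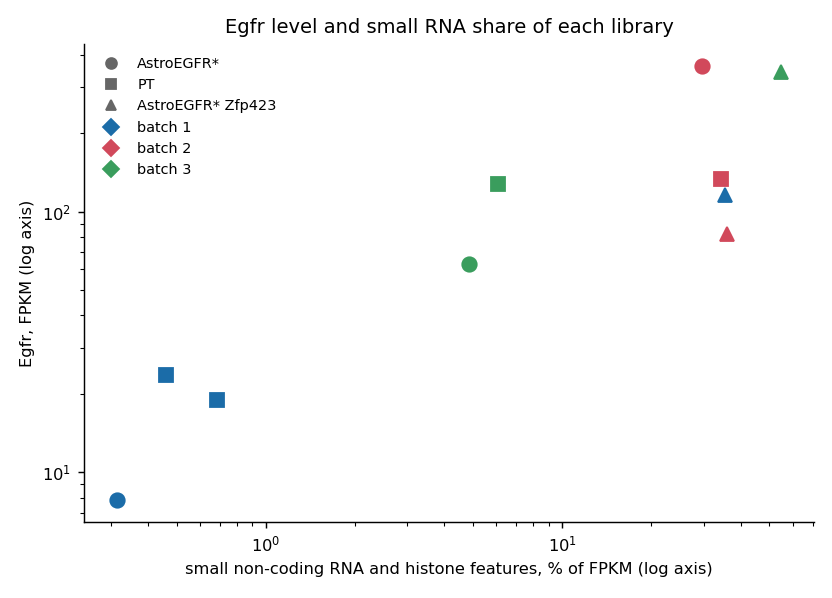
Egfr in FPKM is plotted against the percent of FPKM in small non-coding RNA and histone features, both on log axes, for the 10 libraries, with shapes for the groups and colours for the astrocyte batches. The 3 libraries under 2% lie lowest, at 7.81 to 23.7 FPKM, and the other 7 lie between 63.0 and 362 FPKM.

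The features most like Egfr over the 10 libraries, of 12475 with a mean of at least 1 FPKM, were Lsm7 (Pearson r = 0.956), Fam48a (r = 0.947) and Atp5o (r = 0.947). Lsm7 encodes a subunit of an RNA-binding ring in splicing and mRNA decay and Atp5o a subunit of the mitochondrial ATP synthase. Like Egfr, Lsm7 was lowest in AstroEGFR*1, at 0.0707 FPKM, and highest in AstroEGFR*2, at 4.62 FPKM. These correlations describe 10 libraries, of which several come from the same astrocyte batch or are alike in small RNA share.

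Erbb2, the partner receptor, was listed at 10.8, 8.10 and 8.63 FPKM in AstroEGFR*1 to AstroEGFR*3 and at 6.77, 3.95, 6.19 and 4.23 FPKM in the 4 PT. Every PT value lay below every AstroEGFR* value, and each PT was lower than the AstroEGFR* of its own batch, by 0.42 to 1.17 on the log2 scale. The log2 difference was -0.71 (SE 0.27, n = 3 and 4), with an unadjusted p of 0.0302 and a limma adjusted p of 0.308, and the exact permutation p was 0.0571. Erbb2 varied least of the receptors that passed the filter on low values, 2.81-fold over the 10 libraries, and it was the most abundant receptor transcript only in AstroEGFR*1, where Egfr made up 41.2% of the receptor FPKM. In the Zfp423 libraries it was at 11.1, 8.36 and 4.62 FPKM, close to the AstroEGFR* of the same batch in batches 1 and 2 (log2 differences of 0.04 and 0.04) and lower in batch 3 (-0.78). The mean difference over pairs was -0.23 (SE 0.30, limma adjusted p = 0.844).

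Erbb3, a receptor with little kinase activity of its own that binds neuregulins, differed widely within each group. It was at 0.330, 7.81 and 0.0795 FPKM in AstroEGFR*1 to AstroEGFR*3 and at 0.188, 2.32, 0.0608 and 2.02 FPKM in the 4 PT. In the Zfp423 libraries it was at 1.28, 1.42 and 7.24 FPKM, and the groups overlapped throughout. Neither the difference in PT (-0.31, SE 0.83, limma adjusted p = 0.923) nor that with Zfp423 (0.61, SE 1.02, limma adjusted p = 0.879) exceeded the spread. As for Egfr, Erbb3 was lower with the Zfp423 vector in batch 2 (-1.87) and was higher in batch 3 (2.93) and batch 1 (0.78). Markers of the oligodendrocyte lineage, in which Erbb3 is also expressed, summed to 1357 and 1689 FPKM in PT1 and PT4. In the other 8 libraries they summed to 38.3 to 223 FPKM. Erbb3 differed between PT1 and PT4, and the part of these cells in its values was not tested.

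Erbb4, a neuregulin receptor of neurons and glia, was at 0.0536, 0.00785 and 0.0748 FPKM in AstroEGFR*. The PT cultures had 0.221, 0.323, 0.143 and 0.806 FPKM. All were above all AstroEGFR* values (exact permutation p = 0.0571), yet all lay below 1 FPKM, under the filter of the fit. In the Zfp423 libraries it was at 0.199 FPKM in batch 1 and listed at 0 in batches 2 and 3.

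Hbegf was even between the AstroEGFR* cultures, at 129, 147 and 130 FPKM, a 1.14-fold range. In PT1 to PT4 it was at 47.8, 16.1, 48.4 and 27.0 FPKM. The highest PT value was thus well under the lowest AstroEGFR* value, and each PT was lower than its own batch, by 1.41 (PT1), 2.22 (PT4), 3.11 (PT2) and 1.41 (PT3) on the log2 scale. The group means of log2(FPKM + 1) were 7.09 ± 0.10 for AstroEGFR* (SD, n = 3) and 5.03 ± 0.73 for PT (SD, n = 4), a difference of -2.05 (SE 0.40). It missed the threshold, with a limma adjusted p of 0.0627, and the exact permutation p was 0.0286, the smallest that 3 against 4 libraries allow. The adjusted p was 0.0503 with the batch blocked and 0.0463 when the small RNA and histone features were removed and the rest rescaled. It was 0.237 without AstroEGFR*1 and highest, 0.290, with only batches 2 and 3. The log2 difference was -1.74 without PT2 and -2.25 without PT3, the range over the libraries left out and other settings on all batches.

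After infection with the Zfp423 vector Hbegf was at 45.4 FPKM in batch 1, 43.6 FPKM in batch 2 and 331 FPKM in batch 3. The first and second were under, and the third above, all 3 AstroEGFR* values, so that the pairs went in opposite directions (-1.49, -1.73 and 1.34) and the mean difference was -0.63 (SE 0.71, limma adjusted p = 0.816). Markers of other cells split the 3 libraries in the same way. The 8 microglia markers summed to 1473 and 842 FPKM in batches 1 and 2, where all 8 were at 1 FPKM or more, and to 0.0779 FPKM in batch 3, where none was. The 6 fibroblast or meninges markers summed to 4738 and 6923 FPKM in batches 1 and 2 and to 222 FPKM in batch 3. Their part in the Hbegf values was not tested. In AstroEGFR* the same fibroblast or meninges sum ran from 277 to 5478 FPKM and the microglia sum from 1.98 to 11.3 FPKM, while Hbegf stayed at 129 to 147 FPKM. In PT the sums were 0.930 to 370 FPKM and 0.128 to 0.593 FPKM. In bulk libraries such as these, fewer cells of a type and less RNA per cell cannot be told apart.

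The features most like Hbegf over the 10 libraries were 4930455F23Rik (r = 0.953), Clcf1 (r = 0.937) and Ino80c (r = 0.929). Clcf1, which encodes a cytokine of the CNTF receptor, was at 41.2, 42.7 and 18.3 FPKM in AstroEGFR*1 to AstroEGFR*3. It was at 5.63 to 20.1 FPKM in PT, and at 11.7, 11.6 and 69.8 FPKM with the Zfp423 vector in batches 1, 2 and 3.

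**Figure D3:**
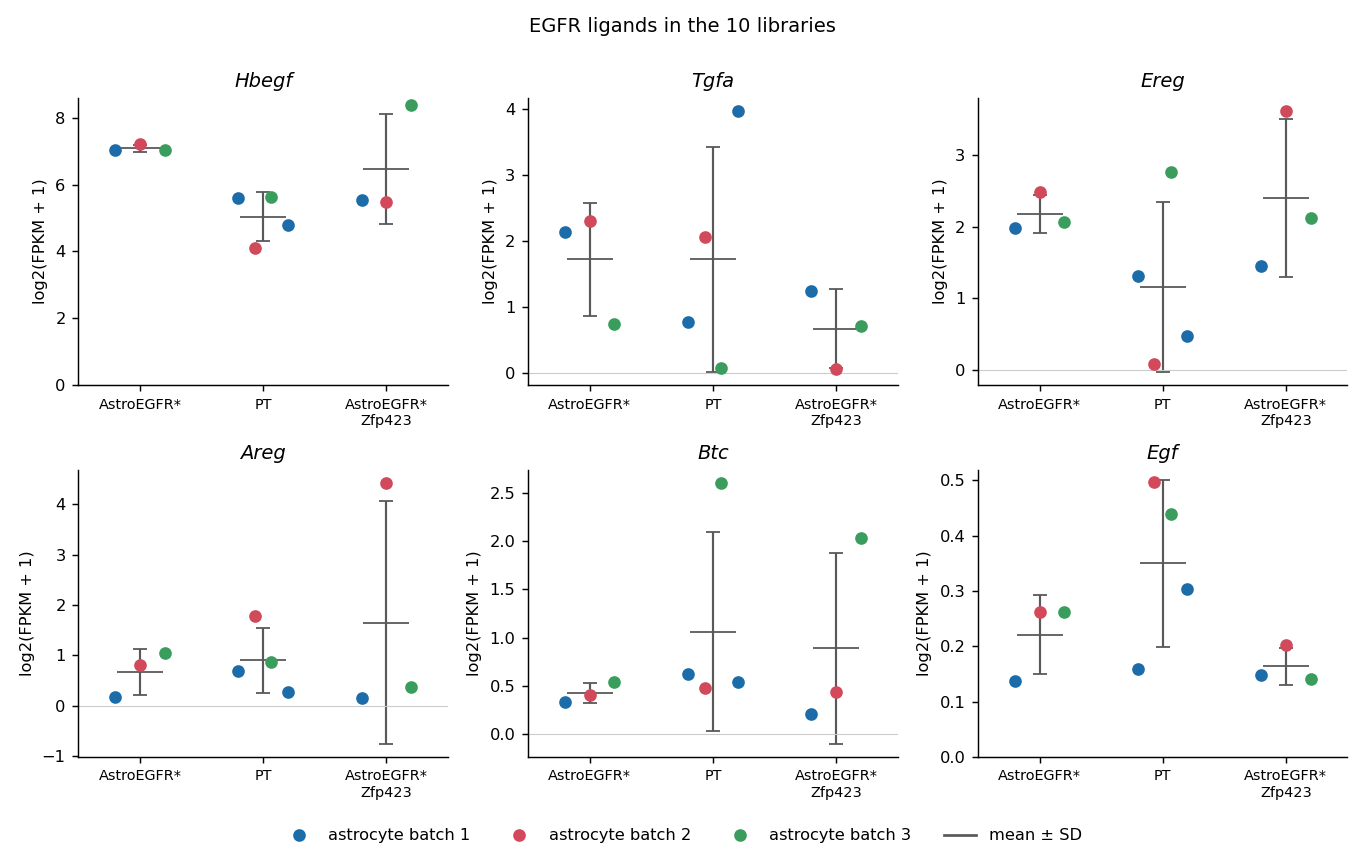
Each panel gives log2(FPKM + 1) of 1 ligand gene in the 10 libraries, in the same groups, colours and bars as for the receptors and with a scale of its own. Hbegf lies at 129 to 147 FPKM in AstroEGFR* and at 16.1 to 48.4 FPKM in PT, whereas Tgfa, Ereg, Areg and Btc are each highest in a single library of PT or AstroEGFR* Zfp423.

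Hbegf made up 93.7% to 95.9% of the summed FPKM of the 6 ligands in AstroEGFR* and 62.9% to 93.2% in PT. The second ligand was Tgfa, Ereg or Areg, depending on the library. Tgfa, the ligand that binds EGFR in many epithelia and in the developing brain, was at 3.39, 3.95 and 0.678 FPKM in AstroEGFR*1 to AstroEGFR*3 and at 0.724, 3.20, 0.0576 and 14.7 FPKM in the 4 PT. The cultures PT1 and PT4, both of batch 1, differed from AstroEGFR*1 by -1.35 and 1.84 on the log2 scale. The mean FPKM was 2.67 in AstroEGFR* and 4.67 in PT, the latter raised by PT4, while the means of log2(FPKM + 1) were both 1.73 (difference -0.00, SE 0.92, limma adjusted p = 1.000). In the 3 Zfp423 libraries Tgfa was at 1.38, 0.0461 and 0.645 FPKM, lower than its own AstroEGFR* in 3 of 3 pairs, although by 0.03 only in batch 3. The mean log2 difference was -1.05 (SE 0.59, limma adjusted p = 0.669), and the exact sign-flip permutation p was 0.25, the smallest that 3 pairs allow. Tgfa was the only one of the 7 members tested that was lower in all 3 pairs, and 15.2% of all features were.

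Ereg, which encodes epiregulin, was even in AstroEGFR*, at 2.94, 4.58 and 3.20 FPKM. It was at 1.49, 0.0533, 5.81 and 0.384 FPKM in the 4 PT, under the AstroEGFR* range in 3 of 4 PT and above it in PT3. The difference was -1.02 (SE 0.64, limma adjusted p = 0.551). It was -0.66 without PT2 (adjusted p = 0.736) and -1.56 without PT3 (adjusted p = 0.179). Its values with Zfp423 were 1.74, 11.3 and 3.36 FPKM, a mean difference of 0.22 (SE 0.44, limma adjusted p = 0.901).

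Areg, which encodes amphiregulin, was near or under 1 FPKM in AstroEGFR* (0.127, 0.748 and 1.07 FPKM) and at 0.606, 2.46, 0.821 and 0.207 FPKM in the 4 PT, which did not pass the filter of that fit. The Zfp423 libraries had 0.107, 20.4 and 0.305 FPKM. The value in AstroEGFR*2 Zfp423 was the highest of any ligand other than Hbegf in the 10 libraries, and the mean difference (0.97, SE 1.00, limma adjusted p = 0.798) rested on it. Ereg, a neighbour of Areg on chromosome 5, was also highest in that library, which is 1 of the 2 with high microglia and fibroblast or meninges markers. AstroEGFR*1 Zfp423, the other, had 0.107 FPKM of Areg and 1.74 FPKM of Ereg.

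The promoters of Egfr and Areg are shown. Egfr gave the highest level of the receptors. Areg gave the highest single value of the ligands besides Hbegf, 20.4 FPKM in AstroEGFR*2 Zfp423. Its mean over the 10 libraries, 2.69 FPKM, was below those of Ereg (3.48 FPKM) and Tgfa (2.88 FPKM). Each sequence runs from 250 bases before to 50 bases after the start as RefSeq places it on build GRCm38 (the submitters' processing notes name mm9). Sequences were found for 7 of the 10 genes, and not for Erbb3, Hbegf or Ereg. Capitals mark matches on either strand to the cAMP response element TGACGTCA or to TATAAA, which do not overlap in Areg. The Areg promoter (chr5:91139349-91139648, plus strand, 59.3% GC) holds 1 of each, and the Egfr promoter (chr11:16751953-16752252, plus strand, 62.3% GC) holds neither. Of 32851 promoters of this length, 1.79% hold the first motif and 13.6% the second, and their median GC was 52.7%.
Egfr: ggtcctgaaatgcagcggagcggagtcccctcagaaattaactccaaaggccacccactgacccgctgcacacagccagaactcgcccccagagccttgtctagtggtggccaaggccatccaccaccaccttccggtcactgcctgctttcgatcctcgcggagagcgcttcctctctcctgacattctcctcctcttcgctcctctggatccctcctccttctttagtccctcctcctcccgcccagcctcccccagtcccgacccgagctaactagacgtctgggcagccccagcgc
Areg: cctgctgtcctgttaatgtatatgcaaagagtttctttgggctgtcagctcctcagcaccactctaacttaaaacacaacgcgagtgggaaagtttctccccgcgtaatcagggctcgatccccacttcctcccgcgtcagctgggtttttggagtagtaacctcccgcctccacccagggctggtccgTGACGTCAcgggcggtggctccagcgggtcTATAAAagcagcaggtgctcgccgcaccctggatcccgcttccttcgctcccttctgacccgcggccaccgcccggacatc

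Btc, which encodes betacellulin, was at 0.259, 0.326 and 0.454 FPKM in AstroEGFR* and at 0.541, 0.396 and 0.458 FPKM in PT1, PT2 and PT4, against 5.08 FPKM in PT3. It was also highest in batch 3 among the Zfp423 libraries, with 3.08 FPKM against 0.157 and 0.352 FPKM in batches 1 and 2. AstroEGFR*3, the parent culture of both, was at 0.454 FPKM. The difference in PT was 0.64 (SE 0.59, limma adjusted p = 0.712), positive in each of the 4 PT against its own batch, and by 0.29 or less in PT1, PT2 and PT4. Egf, the founding ligand, stayed at 0.10 to 0.411 FPKM in all 10 libraries. It was slightly higher in each PT than in its own batch, by 0.02 to 0.23, below the filter. The EGF protein added to the PT medium is not measured here.

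Of the 10 members, 7 passed the filter on low values in each comparison, and Erbb4 and Egf in neither. In PT, 0 of the 7 passed the adjusted threshold, against 1.24% of 12261 features. An unadjusted p under 0.05 was reached by 2 of them, Erbb2 and Hbegf, both lower, against 13.6% of all features, and the groups did not overlap for the same 2, against 14.8%. The median log2 difference of the 7 was -0.31, beside 0.03 over all features. With Zfp423, 0 of the 7 passed, as did 0% of the 12366 features (2 features passed without the batch as a block), and 0 of the 7 reached an unadjusted p under 0.05, against 7.38% of all features. The median of the 7 was 0.22, beside 0.02 over all features. Both comparisons share the 3 AstroEGFR* libraries. For all 10 members the ranges of the 3 groups overlapped between neighbours in the order of the group means.

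**Figure D4:**
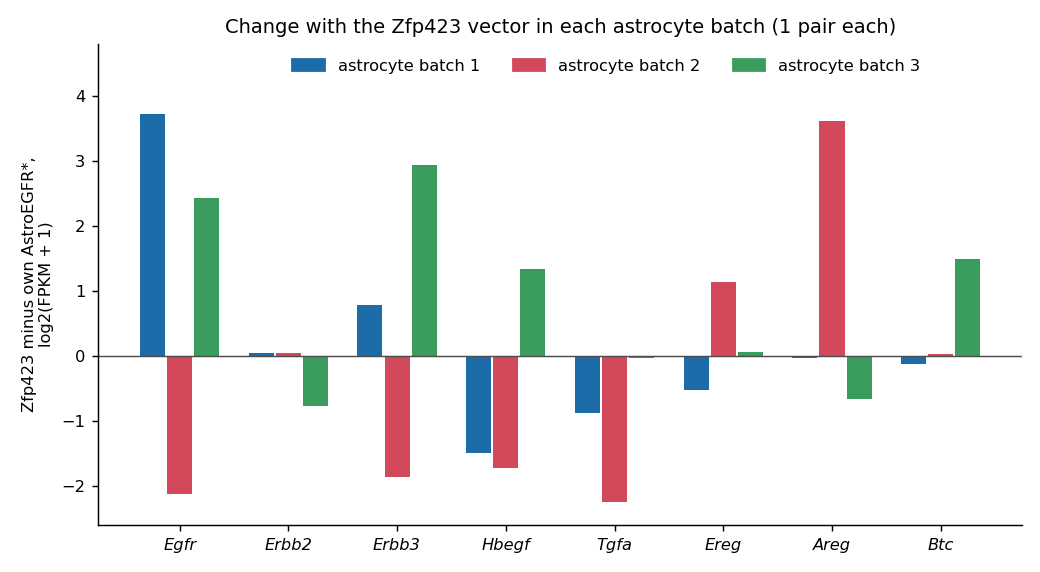
Bars give the difference in log2(FPKM + 1) between each AstroEGFR* Zfp423 library and the AstroEGFR* of the same astrocyte batch, 1 pair per bar, for 8 of the 10 genes. Egfr and Erbb3 are lower in batch 2 and higher in batches 1 and 3, Hbegf is higher in batch 3 only (1.34), and the bar of Areg in batch 2 (3.62) stands alone.

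Other ligands of the same receptors were read from a list of 5 genes. Nrg1, which encodes neuregulin 1, was at 10.1, 7.35 and 7.12 FPKM in AstroEGFR*1 to AstroEGFR*3 and at 1.14, 0, 0.367 and 1.28 FPKM in the 4 PT. It was lower in every PT than in every AstroEGFR*, with a log2 difference of -2.50 (SE 0.38), a limma adjusted p of 0.0285 and an exact permutation p of 0.0286. The lower calls made up 0.922% of all features. The adjusted p was 0.0152 with the batch as a block. It was 0.0556 with PT1 and PT4 averaged, 0.0563 without the filter on low values and 0.105 with a pseudocount of 0.1. When any 1 of the 7 libraries was left out it was 0.0512 to 0.163, highest without AstroEGFR*1. The call did not hold in these settings, while the difference stayed at or below -2.27. The fibroblast or meninges markers were also lower in most PT, with sums of 277 to 5478 FPKM in AstroEGFR* and 0.930 to 370 FPKM in PT, as were the microglia markers (1.98 to 11.3 against 0.128 to 0.593 FPKM). In AstroEGFR*1 to AstroEGFR*3 the fibroblast or meninges sums were 277, 493 and 5478 FPKM, and in PT3 the sum was 370 FPKM. The part of these cells in the Nrg1 values was not tested. With Zfp423, Nrg1 was at 6.85, 8.21 and 3.13 FPKM, within or below the AstroEGFR* range (difference -0.44, SE 0.33, limma adjusted p = 0.721). Nrg2 was at 1.96 to 4.42 FPKM in PT and 3.18 to 4.79 FPKM in AstroEGFR* (difference -0.27, SE 0.34, adjusted p = 0.807). Epgn, Nrg3 and Nrg4 did not exceed 0.316 FPKM in any library.

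The proteases and their cofactors that release the ligands did not pass the threshold in PT (0 of 5 tested, of 6 listed). Among the tested genes the largest differences were those of Adam12 (1.17, SE 0.68), Adam9 (-0.36, SE 0.26) and Adam17 (0.36, SE 0.20), the last being the main sheddase of several EGFR ligands. Adam17 was higher in each PT than in each AstroEGFR*, on log2 means of 5.10 and 4.75 (limma adjusted p = 0.499). Rhbdf2, a cofactor of ADAM17, was under the filter on low values and is named for its values. It was at 0.724, 0.475 and 1.98 FPKM in AstroEGFR* and at 0.0448, 0.395, 0.0674 and 0.0292 FPKM in PT, lower in each PT than in each AstroEGFR* (log2 difference -0.81, exact permutation p = 0.0286). The microglia sum was lower in PT as well, at 0.128 to 0.593 against 1.98 to 11.3 FPKM. With Zfp423 none of 6 passed, and Rhbdf2 was at 3.47, 8.18 and 0 FPKM. Its higher values were in batches 1 and 2, where the microglia markers summed to 1473 and 842 FPKM, and the part of these cells in either comparison was not tested. Adam10, which was picked out for this value, was lower in all 3 Zfp423 libraries (34.0, 28.6 and 36.6 FPKM) than in all 3 AstroEGFR* (92.4, 43.4 and 93.3 FPKM), with a log2 difference of -1.11 (SE 0.27, unadjusted p = 0.0134, limma adjusted p = 0.628).

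Of 11 adaptors and proximal signalling genes, all tested, 0 passed in either comparison. Shc1, an adaptor between the receptors and RAS, was lower in each PT (15.5 to 36.2 FPKM) than in each AstroEGFR* (39.1 to 65.6 FPKM), with a log2 difference of -0.93 (SE 0.34, limma adjusted p = 0.298). Pik3r1, the regulatory subunit of PI3K, and Gab1, a docking protein, had differences of 0.87 (SE 0.43) and 0.55 (SE 0.51).

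Of 9 negative regulators of the receptors, 0 passed, and Lrig1, a membrane protein that promotes degradation of ERBB receptors, came nearest. It was at 75.8, 76.3 and 42.3 FPKM in AstroEGFR*1 to AstroEGFR*3 and at 180, 223, 93.6 and 153 FPKM in the 4 PT. Every PT was above every AstroEGFR* and above its own batch, by 1.01 to 1.54 on the log2 scale. The difference was 1.29 (SE 0.37, limma adjusted p = 0.171), and the adjusted p was 0.0300 with the batch as a block, 0.308 with PT1 and PT4 averaged and 0.101 to 0.423 with 1 library left out. With Zfp423, Lrig1 was at 68.8, 44.0 and 59.1 FPKM (difference -0.15, SE 0.32, adjusted p = 0.909). Socs5 (-0.51, SE 0.49) and Rnf41 (0.44, SE 0.24) followed in PT.

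The ERK output list of 15 genes had the highest median in PT, 1.08 on the log2 scale beside 0.03 over all features, with 11 of 15 above 0 against 52.1% of all features, although 0 passed the adjusted threshold. Spry4, a feedback inhibitor of receptor tyrosine kinase signalling, was at 12.0, 30.4 and 2.42 FPKM in the 3 AstroEGFR*. The 4 PT had 42.4, 67.7, 72.6 and 55.7 FPKM. The lowest PT was above the highest AstroEGFR* (difference 2.41, SE 0.67, limma adjusted p = 0.161; exact permutation p = 0.0286). Etv1, an ETS factor downstream of ERK, was at 2.82 to 7.83 FPKM in AstroEGFR* and 9.14 to 39.4 FPKM in PT, also without overlap (difference 1.89, SE 0.51, adjusted p = 0.147). Phlda1, the third by size, overlapped (difference 1.66, SE 0.72, adjusted p = 0.374). Besides Spry4 and Etv1, Spry2 (1.42) and Etv5 (1.08) reached an unadjusted p under 0.05 and were picked out for it, so that 4 of 15 did, all higher, against 5.88% of all features that were higher at that p. The PT medium held EGF and FGF2, and the parts of the medium and the tumour in these values cannot be told apart. Oligodendrocyte lineage markers summed to 1357 and 1689 FPKM in PT1 and PT4 and to 145 and 131 FPKM in PT2 and PT3, against 66.8 to 223 FPKM in AstroEGFR*, and the fibroblast or meninges sum was 0.930 to 370 FPKM in PT against 277 to 5478 FPKM. The part of these cells was not tested.

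In the Zfp423 comparison the median of the ERK output list was -0.25 beside 0.02 over all features. In this list 10 of the 15 genes were lower in batches 1 and 2 and higher in batch 3, against 15% of all features. The other 5 were Dusp6, Spry1, Spred2, Egr1 and Fosl1, named after their values were seen. The pattern, which Hbegf also had, was itself chosen after the values were seen. All genes were read from the same 3 pairs, so they are not independent and the count was not tested. The same batches split in their markers, with microglia sums of 1473, 842 and 0.0779 FPKM, fibroblast or meninges sums of 4738, 6923 and 222 FPKM and astrocyte sums of 133, 7.22 and 813 FPKM in batches 1, 2 and 3, and the part of these cells was not tested. Spry4 was at 5.30, 2.92 and 36.3 FPKM in batches 1, 2 and 3, differences from the same batch of -1.04, -3.00 and 3.45. Etv1 was at 2.45, 0.891 and 19.0 FPKM, with differences of -1.06, -2.22 and 2.39. Neither mean difference exceeded its error (-0.20, SE 1.34, and -0.30, SE 0.99). Spred2, a further ERK inhibitor that was picked out for its value, was lower in all 3 pairs (difference -1.63, SE 0.37, unadjusted p = 0.0106, limma adjusted p = 0.628).

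**Figure D5:**
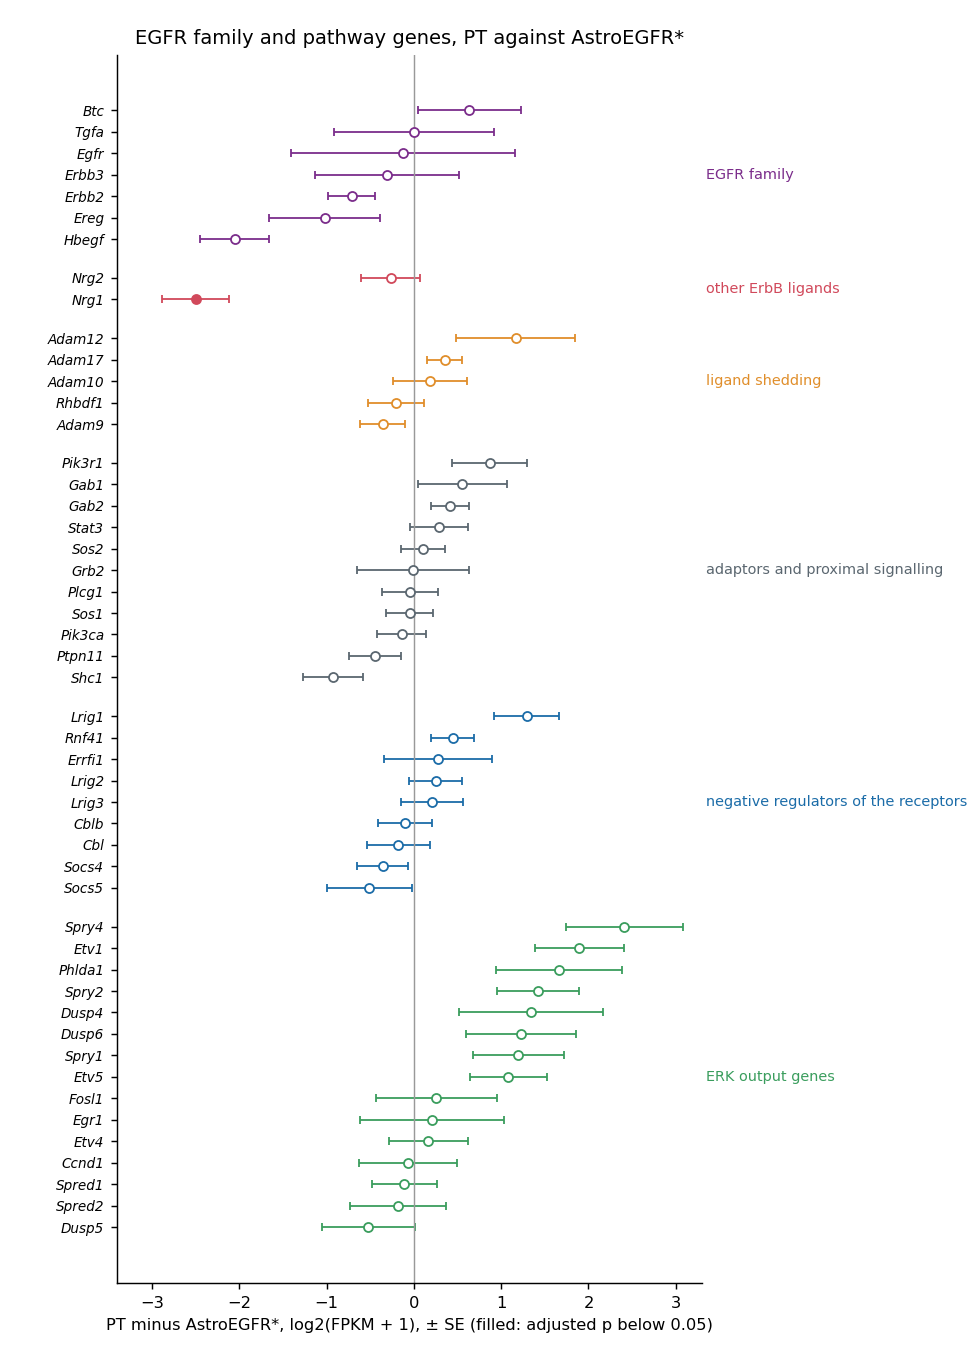
Points give the difference in log2(FPKM + 1) of PT from AstroEGFR* with its SE for the members and pathway genes that passed the filter on low values, ordered by size within each list, with a filled point for an adjusted p under 0.05. Only Nrg1 (-2.50) is filled, Hbegf lies next to it at -2.05, and Spry4 (2.41) has the largest positive difference.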

How the data were processed

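RNA was sequenced from 3 AstroEGFR*, 4 PT and 3 AstroEGFR* Zfp423 cultures. The authors deposited 1 matrix of FPKM values for 23230 features, and the submitters' processing notes name TopHat 1.3, Cuffnorm and mm9. The labels name a TruSeq RNA kit and a lentiviral Zfp423 vector, where the paper describes stranded libraries after removal of ribosomal RNA and a retroviral vector, and this was not resolved. The assignment of PT to astrocyte batches is the study's.

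FPKM are not counts, so limma 3.58.1 in R 4.3.3 was fitted to log2(FPKM + 1), keeping features whose mean reached 1 FPKM, with an empirical Bayes trend and Benjamini-Hochberg adjustment over all features (threshold 0.05). The Zfp423 comparison had the astrocyte batch as a block, because each pair is 1 culture with and without the vector. Deviations from the group means correlated at 0.344 to 0.493 between PT and AstroEGFR* of the same batch, and at 0.239, -0.110 and -0.261 in the Zfp423 pairs. Exact tests permuted library labels, two-sided, and were not adjusted for the number of genes. P-values measure the spread between these cultures, and PT1 and PT4 are counted as 2 although they share a batch. The fit was tested on simulated data with 200 changed features. Of these, 151 were called in the PT design and 66 in the Zfp423 design, besides 10 and 6 unchanged features. A count of 0 with Zfp423 therefore does not show that nothing changed. The remaining values were computed with pandas 2.3.3, numpy 2.4.6 and scipy 1.17.1 under Python 3.11.15.

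Named were all 10 members, pathway genes past the threshold, the 3 largest PT differences among the tested genes of each list and the 3 features most correlated with Egfr and Hbegf. Outside this rule, Adam10, Rhbdf2, Spry2, Etv5, Spred2, Dusp6, Spry1, Egr1 and Fosl1 were named after their values were seen, and Epgn, Nrg3 and Nrg4 to complete a list. The members and lists were chosen with earlier results of these data known. Alternatives were another pseudocount, no filter, other scaling, no small RNA features, no trend, all libraries in 1 fit, the block changed, PT1 and PT4 averaged and each library left out. Only batches 2 and 3, and only the pair of batch 3, were added after the values were seen.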

Additional observations from a re-analysis of the deposited data

Results flagged for a closer look

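Btc stood apart in PT3. The gap from PT3 to the next PT was 0.933 of the range of the 4 PT values on the log2(FPKM + 1) scale, above Dixon's 95% critical value for 4 samples, which chance exceeds in about 1 group in 20.

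Egfr went in opposite directions between astrocyte batches in both comparisons. In PT the log2 difference from AstroEGFR* of the same batch was 1.33 in batch 1 (mean of PT1 and PT4), 1.01 in batch 3 and -1.43 in batch 2. With the Zfp423 vector it was 3.73 in batch 1, 2.43 in batch 3 and -2.13 in batch 2. Both sets of differences use the same AstroEGFR* libraries, of which AstroEGFR*2 had the highest Egfr of all 10 libraries.

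With the Zfp423 vector Erbb3 also differed in direction, at 2.93 in batch 3 and -1.87 in batch 2. Hbegf was higher in batch 3 (1.34) and lower in batch 1 (-1.49) and batch 2 (-1.73). Each batch holds 1 pair here, so these differences between batches were not tested.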

How the results depend on the processing

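In PT, 152 features were called. The count was 82 with all 10 libraries in 1 fit, 475 with the replicate block, 61 with PT1 and PT4 averaged, 7 to 123 with 1 library left out (7 without AstroEGFR*1, 54 without AstroEGFR*3, 97, 70 and 58 without PT1, PT2 and PT4) and 0 with only batches 2 and 3, where 1638 had an unadjusted p under 0.05. Among the members the count of 0 became 1 (Hbegf) only without small RNA and histone features. The 1 pathway gene called, Nrg1, was lost (0) with a pseudocount of 0.1, without the filter, with PT1 and PT4 averaged, with any 1 library left out (0 to 0) and with only batches 2 and 3, and the replicate block gave 2, Nrg1 and Lrig1. With Zfp423 the count of 0 features became 2 without the block and 0 to 51 with 1 pair left out, 51 without batch 2.

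Directions changed for differences that no setting called. In PT, Egfr was 0.41 with the replicate block, 0.30 with PT1 and PT4 averaged and -1.50 to 1.19 with 1 library left out, and Tgfa was 0.00757 with median-ratio scaling and -0.75 to 0.55 with 1 left out. With Zfp423 and 1 pair left out, Erbb2 was -0.37 to 0.0402, Erbb3 -0.54 to 1.85 and Ereg -0.23 to 0.60. The pair of batch 3 alone gave 1.34 for Hbegf and -0.67 for Areg. Of 217 values of single genes, 186 kept direction and side of the threshold. The causes were not tested, and depth limits could not be set without fragment counts.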
